A study of Mus musculus with 1392 samples.

Results

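The region described here spans chromosome 1 from 15200000 to 15950000 (mm9) and holds the genes Kcnb2, Terf1 and Sbspon. Its members are all peaks of the deposited table that overlap this window, 25 of the 115295 peaks. The region was chosen by the accessibility of these peaks in old against young stem cells, led by a peak inside Kcnb2, so folds and genome-wide calls of that contrast are given for its peaks as a description and support nothing. Gene positions are approximate: Kcnb2 lies at about 15277000 to 15714000, Terf1 at about 15796000 to 15834000 and Sbspon at about 15844000 to 15883000. Each peak is named below by the distance of its middle from the approximate start of Kcnb2, so that "+392 kb" lies 392 kb after it.

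The cells were haematopoietic stem cells from the bone marrow of C57BL/6 mice, assayed 1 by 1 in plates with ATAC-seq, where a transposase inserts sequencing adaptors into open chromatin. All cells were sorted as lineage-negative, Sca-1-positive, Kit-positive, CD150-positive, CD48-negative, CD34-negative and Vwf-positive, and carry the label young or old, with no age stated. There were 332 young cells in 2 numbered sets and 1060 old cells in 3 numbered sets. The labels do not say if animals, pools or plates make up the numbered sets. In the titles the cells of the 2 young sets share a running number, while the numbering restarts in each old set. Whether the young sets were prepared apart is not stated. Because no set mixes ages, age and preparation cannot be told apart. The peaks carry no gene names, so the genes used for sorting were not checked against their own peaks. Counts summed per set ran from 1159957 to 4181770, and the median count per cell from 3604.5 in old 3 to 11807 in young 2. Levels are CPM, counts scaled to the same total of all counts in each set. Values over sets are always given in the order young 1 and young 2, then old 1, old 2 and old 3.

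Kcnb2 encodes Kv2.2, a pore-forming subunit of voltage-gated potassium channels that is best known from neurons and other excitable cells. Terf1 encodes TRF1, the shelterin protein that binds double-stranded telomere repeats. Sbspon encodes a secreted protein with a somatomedin B and a thrombospondin type 1 domain. An ATAC-seq peak at a gene's start marks an open promoter, while peaks inside or between genes are often, but not always, distal regulatory elements. The values here are of chromatin, not of RNA.

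The region as a whole carried more signal in old cells. Its 25 peaks together held 119.0 and 118.9 CPM in the young sets, against 196.6, 225.3 and 254.7 in the old sets. Every old set lay above both young sets. Young sets averaged 118.9 ± 0.0326 CPM (SD, n = 2), old sets averaged 225.5 ± 29.1 (SD, n = 3), and the log2 ratio was 0.92. The young sums rest on 138 and 308 counts. Their SD is far below the counting error of such numbers and does not measure how precise the young level is. With the cells of each set split at their median depth, the log2 ratio was 0.82 among shallower and 1.02 among deeper cells.

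**Figure D1:**
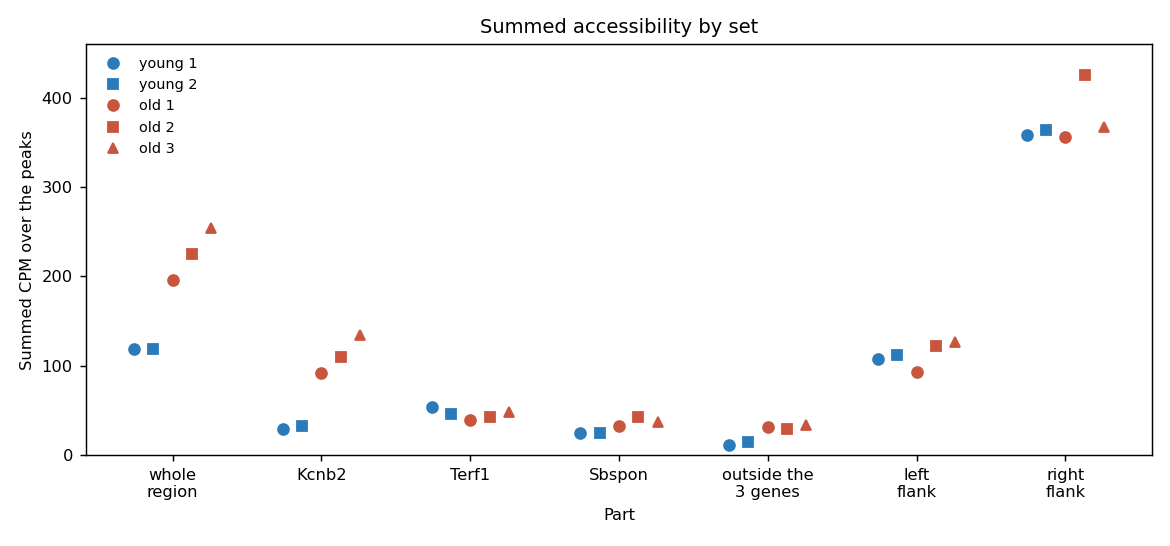
Summed CPM (y axis) over the peaks of the whole region, of its parts and of the 2 flanks of equal width (x axis), with 1 point per set. The old sets sit above the young sets for the whole region, Kcnb2, Sbspon and the peaks outside the 3 genes, and overlap them for Terf1 and both flanks.

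The difference was unevenly spread over the region. The 14 peaks overlapping Kcnb2 held 29.3 and 32.4 CPM in young and 92.5, 110.1 and 134.7 in old sets, which is 3.64-fold more (log2 ratio 1.87). They made up 76.5% of the region's old-minus-young difference in CPM. The 5 peaks overlapping Sbspon held 25.0 and 25.1 CPM in young and 32.3, 42.8 and 37.8 in old sets, a log2 ratio of 0.59. The 5 peaks outside the 3 genes held 11.2 and 14.7 CPM in young and 31.8, 29.2 and 33.5 in old sets, a log2 ratio of 1.28. Terf1 was the exception, with its single peak at 53.5 and 46.7 CPM in young and 39.9, 43.3 and 48.8 in old sets, so that the ages overlapped.

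The windows of 750 kb on either side were not part of the choice. With 2 young and 3 old sets no permutation p could fall below 0.1, so the p-values given for them could not pass 0.05 whatever the values. The left flank, with 20 peaks, held 107.8 and 112.4 CPM in young and 93.3, 122.3 and 126.8 in old sets, with a log2 ratio of 0.05 between ages (exact, two-sided permutation p = 1.0 over 10 splits, adjusted p = 1.0 over the 2 flanks). The right flank, with 29 peaks, held 357.8 and 363.3 CPM in young and 356.3, 425.7 and 366.9 in old sets, with a log2 ratio of 0.09 between ages (exact, two-sided permutation p = 0.7, adjusted p = 1.0). In both flanks the sets of the 2 ages overlapped. The sign of the left flank's small ratio turned with several settings, among them TMM-adjusted totals (-0.03).

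Of the 25 peaks, 16 had enough counts to be tested across the genome (edgeR's quasi-likelihood test, with each set's counts summed). Among them 6 passed an adjusted p of 0.05, all higher in old, where 3.17% of 58167 tested peaks passed, 1.39% higher and 1.78% lower in old. Because this contrast chose the region, nothing is read from that count. Of the 6, 4 overlap Kcnb2, 1 overlaps Sbspon and 1 lies between Terf1 and Sbspon. The median log2 fold change of the 16 was 1.30, against -0.01 over all tested peaks, and 12 were above 0 and 4 below. The number that passed depended on the sets and the tool, and all that passed in these settings were higher in old. Without young 2 it was 3 of 16 tested (background 0.600%), without young 1 it was 7 of 20 (0.974%), and DESeq2 called 3 of 14 (0.215%). A minimum count of 30 left 4 tested, of which 3 passed (background 1.39%), and thinning every cell to 1906 counts left 2, of which 1 passed (0.498%). With the set number as a replicate block the same 6 passed (0.808%). In that fit old 3, the only set numbered 3, adds nothing to the age effect.

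**Figure D2:**
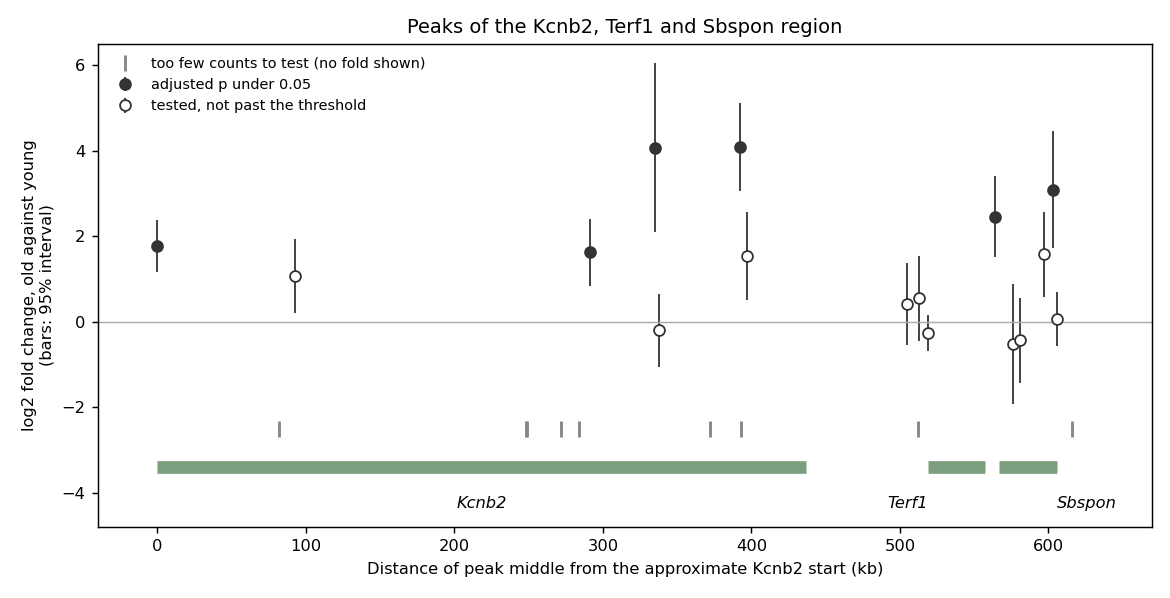
Log2 fold change of old against young (y axis, edgeR, bars 95% intervals) for each tested peak by its distance from the approximate Kcnb2 start (x axis, kb), with the 3 genes as green bars and untested peaks as grey ticks. Filled points passed an adjusted p of 0.05: 4 of the 6 lie in Kcnb2, and the points at the Terf1 start (+519 kb) and the Sbspon start (+606 kb) lie near 0.

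The 3 gene starts did not behave alike. The Kcnb2 start peak, at 15276289 to 15277667, is the widest of the region at 1378 bp. It held 7.76 and 8.88 CPM in young sets, and 23.9, 34.3 and 36.6 in old sets. The lowest old set was well above the higher young set. The fitted log2 fold change was 1.78 ± 0.31 (SE, edgeR) and ran from 1.68 to 2.01 over 14 alternative settings. It alone held 21.9% of the region's difference.

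The Terf1 start peak, at 15795361 to 15796485, was the strongest of the region, with the values given above for Terf1. Old 3, at 48.8 CPM, lay between the 2 young sets. Young sets averaged 50.1 ± 4.76 CPM (SD, n = 2) and old sets 44.0 ± 4.45 (SD, n = 3). The fitted log2 fold change was -0.26 (95% interval -0.68 to 0.15). The Sbspon start peak, at 15882480 to 15883196, held 12.9 and 12.0 CPM in young and 13.4, 14.6 and 12.8 in old sets. Again the ages overlapped, and the fitted log2 fold change was 0.06 (95% interval -0.56 to 0.69). Differences inside these intervals are not excluded.

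Counts of 1 peak per count of another in the same set do not depend on how sets are scaled. For each count at the Terf1 start, the Kcnb2 start had 0.145 and 0.190 counts in young and 0.599, 0.793 and 0.750 in old sets. The +392 kb peak had 0.0161 and 0.0248 in young and 0.437, 0.370 and 0.588 in old sets. These ratios restate, free of scaling, the values of peaks that were already known to differ, and add no separate evidence.

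**Figure D3:**
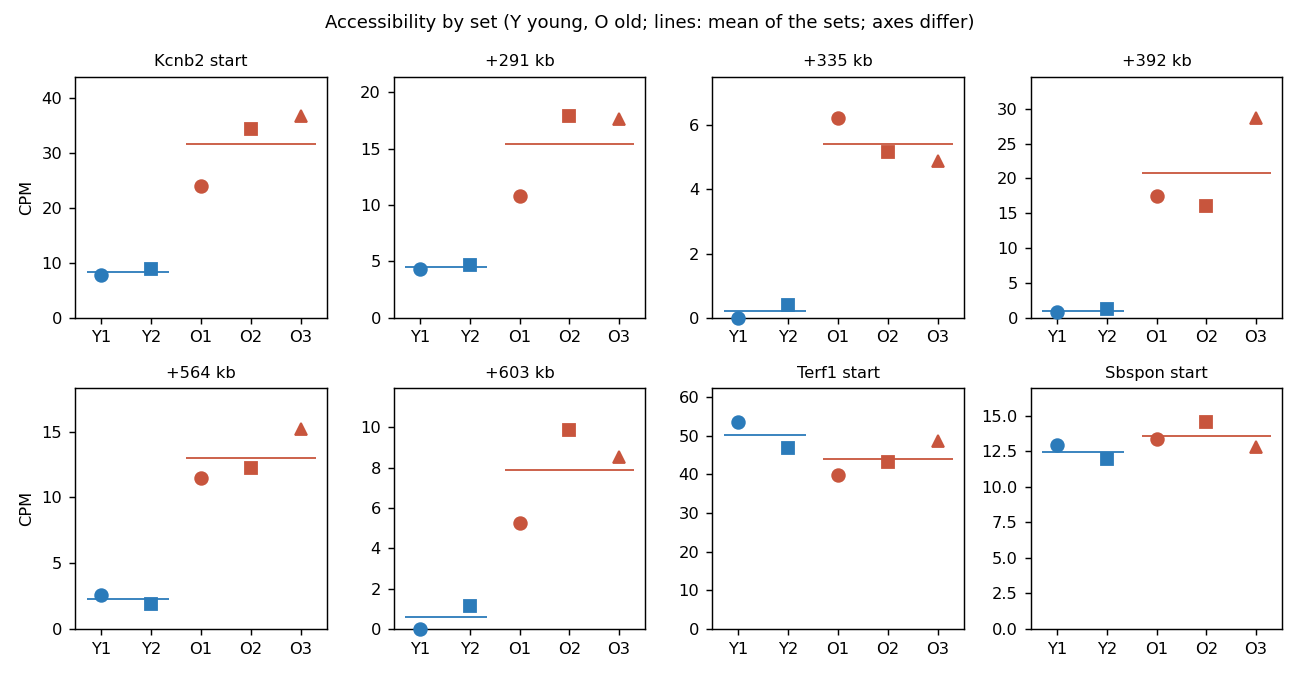
CPM (y axes, each from 0 and with its own range) in the 5 sets (x axes) for the 6 peaks that passed and for the Terf1 and Sbspon starts; lines are means of the sets. In the 6 panels of peaks that passed, all old sets lie above both young sets, while the sets overlap at the Terf1 start and the Sbspon start.

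The peak with the smallest p of the 6 that passed is at +392 kb (15668935 to 15669490). It lies inside Kcnb2 far from the gene's start, 127 kb from the nearest of the 3 gene starts. As it was picked by this contrast, its fold is a description and supports nothing. It held 0.862 and 1.16 CPM in young sets, and 17.5, 16.0 and 28.6 in old sets. Young cells were close to nothing here, with 4 counts in all against 154 in old cells. The fitted log2 fold change was 4.09 ± 0.52 (SE, edgeR), and the ratio of pooled counts per total was 18.2 with an exact 95% interval of 6.95 to 67.5 for counting error. By the difference in CPM the Kcnb2 start was ahead of it (23.3 against 19.7), and by the pooled ratio the next peak described was.

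The +335 kb peak, at 15611900 to 15612299, had no count in young 1 and 0.386 CPM in young 2, against 6.22, 5.18 and 4.88 CPM in old sets. That is 1 young count against 45 old ones, a pooled ratio of 21.2 with an exact 95% interval of 3.62 to 857. The fitted log2 fold change was 4.07 ± 1.01 (SE, edgeR). This peak was not tested without old 1, with a minimum count of 30, with thinned cells or with equal numbers of cells. DESeq2 gave it no adjusted p. The old sets differed little from one another. The +291 kb peak, at 15567743 to 15568330, held 4.31 and 4.63 CPM in young and 10.8, 17.9 and 17.7 in old sets (log2 fold change 1.62 ± 0.40, SE, edgeR). The old sets were again all above the young ones. It no longer passed without young 2 (1.72), without old 2 (1.5), without old 3 (1.56) or with DESeq2 (1.67), although its direction held.

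Between Terf1 and Sbspon, the +564 kb peak at 15840803 to 15841229 held 2.59 and 1.93 CPM in young and 11.5, 12.2 and 15.2 in old sets. All 3 old sets were above both young sets, and the fitted log2 fold change was 2.46 ± 0.48 (SE, edgeR). Without young 2 it was 2.23 and no longer passed. The +603 kb peak, inside Sbspon at 15879740 to 15880034, had no count in young 1, 1.16 CPM in young 2, and 5.26, 9.88 and 8.53 CPM in old sets. Its 3 young counts came from 1 cell, and the pooled ratio was 8.96 with an exact 95% interval of 2.92 to 44.8. The fitted log2 fold change was 3.09 ± 0.70 (SE, edgeR), 4.26 with each cell counted once per peak, and 2.89 without old 2, where it no longer passed, as also with DESeq2 (3.28). No fold is given for +335 kb and +603 kb without young 2, because young 1 had no count at either.

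Of the 10 tested peaks that did not pass, 3 had every old set above both young sets, as did 20.1% of all tested peaks. At +93 kb, in Kcnb2, the levels were 4.31 and 4.25 CPM in young and 7.89, 8.47 and 13.4 in old sets. At +397 kb, also in Kcnb2, they were 0.862 and 3.09 in young and 6.46, 7.53 and 8.53 in old sets. At +597 kb, in Sbspon, they were 5.17 and 1.54 in young and 8.13, 8.00 and 11.0 in old sets. The log2 fold changes of these 3 were 1.07, 1.54 and 1.58. The other 7 overlapped between ages and had log2 fold changes from -0.52 to 0.55. They were the Terf1 and Sbspon starts, the +338 kb peak in Kcnb2, the +505 and +513 kb peaks between Kcnb2 and Terf1, and the +576 and +581 kb peaks in Sbspon.

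The 9 peaks with too few counts to be tested held 8.62 and 6.95 CPM together in young and 19.6, 22.6 and 28.6 in old sets. In 7 of them every old set lay above both young sets, and in none were the old sets all lower. Over all 25 peaks the numbers were 16 and 0, against 19.2% and 11.1% of the 115227 peaks with any count in the genome. Young cells had no count at all at 5 of the 25, where 1.82% of peaks in the genome had none. That share covers peaks of every count level, not only sparse ones. Old sets also held more counts in total, 7948334 against 3749851, so a sparse peak is more easily seen in old cells. Those 5 peaks lie in Kcnb2 and held 82 old counts together. At +248 kb, at +249 kb and at 15648753 to 15649001 there were 23, 24 and 25 old counts, and the exact 95% lower limits of the pooled ratio were 2.71, 2.84 and 2.97. At +82 kb and at 15561016 to 15561215 there were 4 and 6 old counts, and no fold is given. With no filter on counts, 9 of the 25 passed edgeR, all higher in old, where 1.06% of 115227 peaks did so. As this contrast chose the region, nothing is read from any of these numbers of peaks.

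Some close neighbours differed within a few kb. The pairs given here were picked because a peak that passed lies close to a peak that did not. That they differ was thus fixed by the choice. The +392 kb peak is followed after 673 bp by one at +393 kb that had 9 young and 14 old counts, with 4.31 and 1.54 CPM in young and 2.15, 1.41 and 1.22 in old sets. The +335 kb peak is followed after 2197 bp by the +338 kb peak, which held 6.04 and 6.56 CPM in young and 6.46, 5.18 and 5.49 in old sets (log2 fold change -0.21, 95% interval -1.05 to 0.64). The +603 kb peak lies 2446 bp from the Sbspon start peak. In each of these pairs only the first-named peak had old sets apart from young sets. Close peaks that were alike fell outside this choice. For example, the adjacent +248 and +249 kb peaks had no young count, and 23 and 24 old counts.

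Without the 6 peaks that passed, the rest of the region still held more signal in old cells, by a smaller margin. The 19 other peaks held 103.5 and 100.8 CPM in young and 121.5, 129.8 and 143.2 in old sets, a log2 ratio of 0.37. Of their old-minus-young difference of 29.4 CPM, 15.83 CPM came from the 9 peaks with too few counts to be tested. The other 10 held 94.83 and 93.83 CPM in young and 101.9, 107.3 and 114.6 in old sets, a log2 ratio of 0.194. With set totals in place of TMM factors, the median log2 fold change of all tested peaks in the genome was 0.089. The rise in the 10 tested peaks is thus small, and part of it may lie in the scaling. Leaving the +392 kb peak out alone gave the region a log2 ratio of 0.80. The 6 peaks together held 72.4% of the region's old-minus-young difference, with 15.5 and 18.2 CPM in young and 75.1, 95.5 and 111.5 in old sets. These splits used the values themselves and carry no test.

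Per length of peak, the order of the elements differed between ages. In young sets the Terf1 start led with a mean of 44.6 CPM per kb of peak, followed by the Sbspon start with 17.4. In old sets the Terf1 start had 39.1 and was followed by the +392 kb peak with 37.3, which ranked 19 of 25 in young sets with 1.82. The +564 kb peak followed with 30.5 in old and 5.30 in young sets. The Kcnb2 start had 6.04 CPM per kb in young and 22.9 in old sets. The Terf1 start and +392 kb levels in old sets were 44.0 ± 4.45 and 20.7 ± 6.92 CPM before division by width (SD, n = 3), so their order per kb is within the spread between sets.

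**Figure D4:**
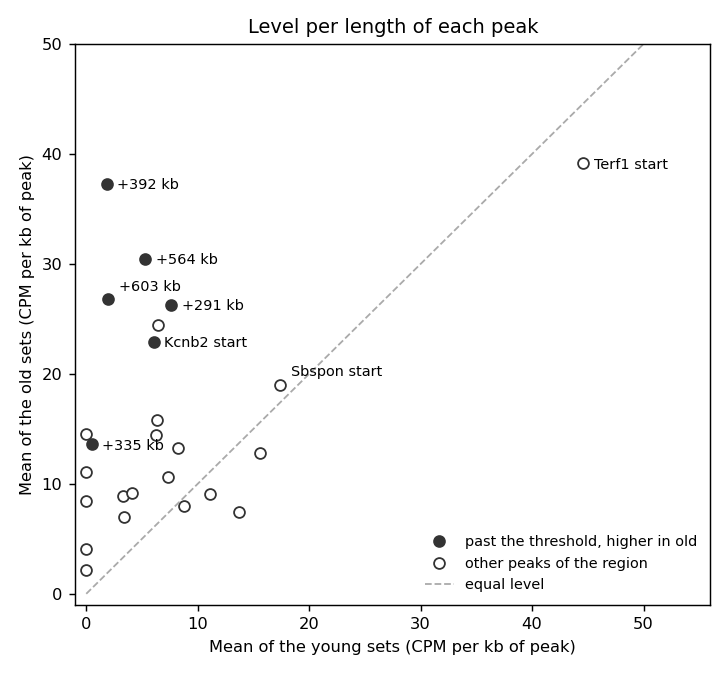
Mean level of each of the 25 peaks per kb of peak width, in young sets (x axis) and old sets (y axis), both in CPM per kb; the dashed line marks equal levels. The Terf1 start lies near the line at 44.6 and 39.1, while +392 kb lies far above it at 1.82 and 37.3.

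How far the signal came from few cells differed between the 6 peaks. The +392 kb peak had a count in 129 cells, no more than 3 in any of them, and its 5 highest cells held 9.49% of its counts. At the Kcnb2 start the same share was 8.68% over 186 cells, and at +603 kb it was 21.7% over 52 cells, the highest of the 6. With all counts, 0.552% and 1.32% of young cells had a count at +392 kb, against 18.3%, 8.16% and 10.4% of old cells. These shares move with depth, so every cell was also thinned to 1906 counts, which left out 4 and 5 young and 84, 13 and 34 old cells. The thinning was a single random draw.

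In thinned cells the +392 kb peak had a count in 8, 13 and 17 cells of the old sets, or 3.60%, 3.54% and 5.00%. None of the 177 and 146 thinned young cells had one, which by a floor of 3 counts allows shares of up to 1.69% and 2.05%. The exact 95% upper limits, shown as bars in the plot of cell shares, were 2.06% and 2.49%. The intervals of the old shares were 1.6% to 7.0%, 1.9% to 6.0% and 2.9% to 7.9%. Those of old 1 and old 2 thus overlap the young ones. The Kcnb2 start was seen in 6.76%, 5.99% and 5.88% of old cells and in 1.69% and 1.37% of young cells. The Terf1 start was seen in 7.21%, 7.36% and 7.94% of old and in 7.34% and 11.6% of young cells. For at least 1 of the 6 peaks that passed, the shares were 14.9%, 16.3% and 18.2% in old and 4.52% and 2.74% in young sets. The old sets were close to each other here, although their median counts per cell before thinning differed from 3604.5 to 9623.

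**Figure D5:**
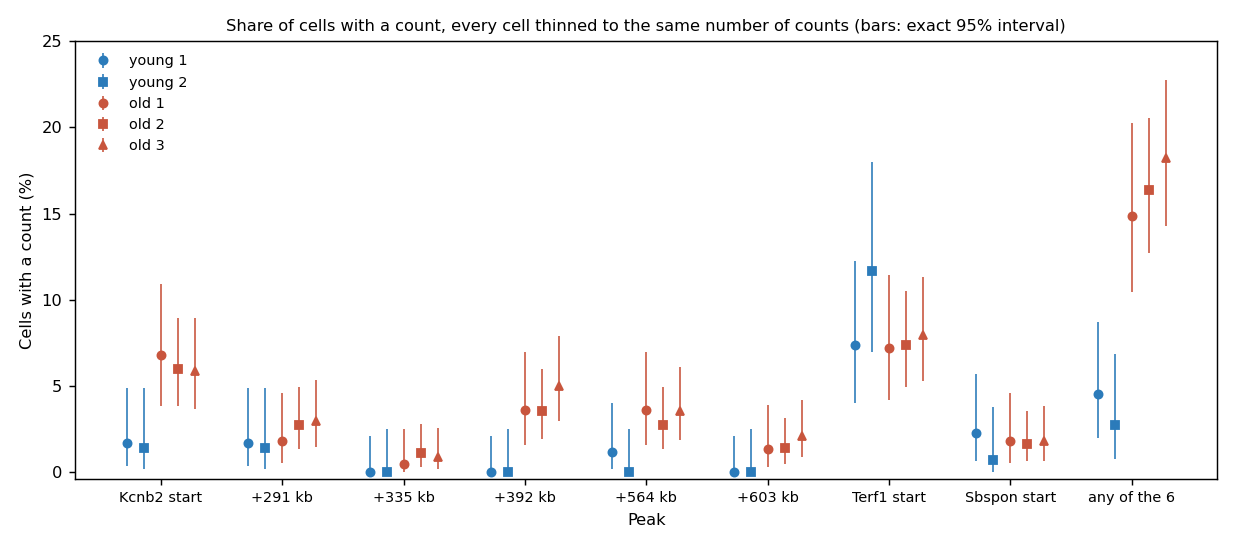
Share of cells with a count (y axis, percent) in each set after thinning every cell to 1906 counts, for the 6 peaks that passed, the Terf1 and Sbspon starts, and any of the 6 (x axis); bars are exact 95% intervals for counting error. At +392 kb no young cell had a count, and for any of the 6 the old sets lie between 14.9% and 18.2%.

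A count at 2 or more of the 6 peaks in the same cell was rare at this depth. Among thinned cells it was seen in 5, 4 and 7 cells of the old sets, and in none of the young ones. Only 8 and 4 thinned young cells had a count at any of the 6, so few could have shown 2. With all counts, exactly 2 of the 6 had a count in 0 and 5 young cells, and in 49, 22 and 18 old cells. Thinned old cells with a count at +392 kb had a mean of 0.500, 0.539 and 0.647 counts at the other 24 peaks in the 3 old sets, against 0.350, 0.370 and 0.424 in cells without. The differences of 0.149, 0.168 and 0.223 counts went the same way in the 3 old sets. They rest on 8, 13 and 17 cells with a count and were not tested. Each difference was smaller than the SD between cells. That SD was 0.53, 0.66 and 0.70 in cells with a count at +392 kb and 0.65, 0.58 and 0.71 in cells without.

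The peaks most like +392 kb over the 5 sets lay on other chromosomes. The search covered all tested peaks outside the region and its flanks. By distance in log2(CPM + 1), here with CPM on TMM-adjusted totals, the nearest was on chromosome 11 at 118465410 to 118465909. It held 0.862 and 1.16 CPM in young sets, and 16.3, 14.6 and 26.2 in old sets, at a distance of 0.202. The next 2 were on chromosome 7 at 77419088 to 77419602 and on chromosome 16 at 23844648 to 23845453, with distances of 0.870 and 1.06. By Pearson correlation only the peak on chromosome 11 stayed among the nearest 3. Likeness over 5 sets, picked among so many peaks, describes those sets only.

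At the edges of the window, the first peak inside on the left is the Kcnb2 start, and the first inside on the right, at +616 kb, held 0.862 and 1.93 CPM in young and 3.11, 3.29 and 3.05 in old sets. The first peak outside on the left, at 15073729 to 15074113, went the other way, with 10.3 and 10.0 CPM in young and 3.35, 3.76 and 4.27 in old sets. The fitted log2 fold change was -1.53 ± 0.42 (SE), and it was the only one of 11 tested peaks of the left flank to pass (edgeR). The first outside on the right, at 16062520 to 16062761, had 2.59 and 2.70 CPM in young and 3.35, 10.8 and 1.22 in old sets, and 69.4% of its counts came from 5 cells. None of the 17 tested peaks of the right flank passed. Over the genome 3.17% passed, so neither flank's count stands out.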

How the data were processed

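The authors deposited counts for each peak in each cell; the values are whole and their totals differ between cells, as in raw counts. Per the submitters' processing notes the build is mm9, and the tools include Picard, SAMtools, Bowtie2, FastQC and Trim Galore, with no versions. How peaks were called, on which cells, and whether reads or fragments were counted: not given in the sources used here. It is also not stated whether starts count from 0 or 1.

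Counts were summed per set and fitted over all peaks with edgeR 4.0.16 in R 4.3.3 (quasi-likelihood test with robust fitting, TMM factors, Benjamini-Hochberg adjustment over the 58167 peaks that passed filterByExpr at a minimum count of 10). The step was tested on simulated data with the same dispersion at all peaks and no effect of preparation, so it does not bear on the folds given here. Log2 fold changes and their errors are on the TMM scale, while the CPM values printed use all counts of a set. Distances and correlations between peaks were computed from CPM on the TMM scale. Standard errors come from the log2 fold change divided by the root of its F statistic, and 95% intervals reach 1.96 of these to either side. What makes a set is unknown, so p-values cover the spread from set to set, possibly technical. Intervals of shares and pooled ratios are exact (Clopper-Pearson, scipy 1.17.1) and, like the floor of 3 counts, cover counting error only.

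DESeq2 1.42.0 was an alternative. The peaks described one by one are those that passed, those nearest the 3 gene starts, the 3 strongest and those at the window's edges. Other peaks named with values were chosen after their values were seen. The members, the window and this rule were chosen with earlier results of these data known. Gene positions came with the region's definition and were not checked, since the gene table at hand is of GRCm38.p6. In that table several predicted genes and pseudogenes also lie between Kcnb2 and Sbspon. Promoters of Kcnb2, Terf1 and Sbspon and sequences of the peaks are not shown.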

Additional observations from a re-analysis of the deposited data

How the results depend on the processing

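Each result was recomputed with 1 choice changed at a time. The region's log2 ratio of 0.92 stayed between 0.80 and 1.02 in all settings but 1, the removal of all 6 peaks that passed (0.37). For Sbspon the ratio of 0.59 became 0.99 with thinned cells and 0.35 without peaks under 300 bp. For the peaks outside the 3 genes the ratio of 1.28 became 1.00 with each cell counted once per peak and 0.91 with thinned cells, and leaving out 1 set gave 1.102 to 1.49, both ends from a young set. The left flank's ratio of 0.05 became -0.067 with thinned cells, -0.026 with TMM-adjusted totals and -0.023 without peaks under 300 bp, and ran from -0.03 to 0.18 with 1 set left out.

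Genome-wide 1844 peaks passed, 769 with a minimum count of 30, 220 with thinned cells, 807 with equal numbers of cells and 423 with DESeq2, and leaving out 1 set gave 776 (without old 3) to 1641, with 989 without young 2 and 1075 without old 2. Of the region's peaks 6 passed, 3 with a minimum count of 30, which tested 4, 1 with thinned cells, which tested 2, and 3 with DESeq2. Leaving out 1 set gave 3 (without young 2) to 7 (without young 1). Young and old sets carry numbers 1 and 2 in common, but with each age's mean removed their profiles correlated at -0.0758 for set 1 and -0.000706 for set 2. Sets were not taken as pairs, although values near 0 at sparse peaks cannot exclude a pairing. With 2 young sets, removing their mean makes their profiles mirror images, so the 2 correlations are not separate checks. With the replicate block, where old 3 adds nothing to the age effect, 1102 peaks passed genome-wide, and 6 in the region, all of them among the same 6.

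The old-minus-young difference in the share of cells with a count at +392 kb was 11.4 percentage points and became 4.05 with thinned cells. The difference at the other peaks between old cells with and without such a count was 0.180 and became 1.39 with all counts, where deeper cells have more of both. Of the 3 most similar peaks, 1 was shared under Pearson correlation. Log2 fold changes of the named peaks kept their sign in all 96 values, with 7 losses of the threshold, named in the text. The split of cells by depth was chosen after seeing the data. With 4 young counts at +392 kb, and fewer at +335 and +603 kb, depth limits the size of these folds. A setting that left a peak untested, without a count in 1 age or without an adjusted p gives no value.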
